A study of Bos taurus with 29 samples.

Results

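The aminoacyl-tRNA synthetases of the bovine oocyte were followed as 37 genes, taken from the 13502 genes listed by symbol: every name of 1 letter followed by ARS, ARS1 or ARS2, together with EPRS1, FARSA and FARSB. Of these, 20 formed the cytosolic class (suffix 1, with EPRS1, FARSA and FARSB) and 17 the mitochondrial class (suffix 2). GARS1 and KARS1 were counted with the cytosolic class by their suffix, although their products serve both compartments. All 37 passed the filter on low values (at least 1 CPM in at least 6 oocytes), as did 11852 genes in all.

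Aminoacyl-tRNA synthetases join each amino acid to its transfer RNA, the step at which the genetic code is read into protein. Most amino acids have a cytosolic enzyme and a separate nuclear-encoded enzyme that is imported into mitochondria, and in animals several cytosolic enzymes are held in a multisynthetase complex on the scaffold proteins AIMP1, AIMP2 and EEF1E1. A growing oocyte stores messenger RNA and then matures without new transcription, while stored messages are recruited to ribosomes by lengthening of the poly(A) tail or are shortened and removed.

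The libraries were made from single Bos taurus oocytes labelled WT, from cumulus-oocyte complexes of FSH-treated donor cattle. GV oocytes (germinal vesicle stage, immature) were taken without culture, IVM oocytes had a polar body after 22 h of maturation with EGF and FSH, and CNP_IVM oocytes had one after 6 h with 200 nM CNP (C-type natriuretic peptide, which holds meiosis in check) without EGF, followed by the same 22 h. The CNP_IVM oocytes therefore spent 28 h in culture, and CNP cannot be told apart from the longer culture. Of 29 labelled oocytes, 22 had values: 7 GV, 8 IVM and 7 CNP_IVM. No donor or culture was named for any oocyte, so each group counted as 1 sample, no test was made, and spreads are between oocytes, not between animals.

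Library totals ran from 20159662 to 39340040 reads. GV replicate 9, whose treatment label reads in vitro maturation, stood apart: 9381 genes reached 1 CPM in it, against 11311 to 11798 in the other 6 GV oocytes. Of all genes past the filter, 46.4% had their lowest GV value there and 33.3% their highest. GV replicate 9 gave the lowest GV value for 20 of the 37 synthetase genes and the highest for 12. In it 6 synthetase genes were at 0 that were at 0 in no other GV oocyte, so counts are also given without it. All 13 oocyte markers were detected, summing to 24559 to 28574 CPM in GV, 27690 to 46763 in IVM and 36382 to 55327 in CNP_IVM oocytes. BTG4 alone averaged 9807, 19952 and 32075 CPM, and without it the sums ran the other way, at 14831 to 22899, 12741 to 17934 and 9851 to 14364 CPM; the list's median log2 differences from GV were -0.24 and -1.12. Of 19 cumulus and granulosa markers 14 were listed, and they summed to 623 to 1002 CPM in GV, 369.9 to 646 in IVM and 253 to 339 in CNP_IVM oocytes. STAR set that order, and the other 13 summed to 58.3 to 262, 144 to 237 and 153 to 238 CPM, with HAS2, a cumulus expansion gene, averaging 16.3, 77.1 and 118 CPM. Others went the other way, with CYP19A1 averaging 4.69, 2.93 and 0.863 CPM and INHA 15.7, 0.723 and 0.358 CPM. The median log2 differences from GV of the 10 cumulus and granulosa markers past the filter were -0.58 and -0.52. Of 8 blood and immune markers 5 were listed, and most of their sum of 173 to 362, 8.42 to 46.8 and 3.53 to 25.7 CPM was VWF, an endothelial gene; the other 4 summed to 13.2 to 65.6, 0.496 to 6.51 and 0 to 3.33 CPM, mostly CD3E. The part of these other cells in any difference below was not tested. The median of all genes lay at -0.28 (log2) for IVM and -0.61 for CNP_IVM against GV, and at -0.28 between the cultured groups. Of genes past 2-fold, 32.4%, 26.8% and 11.1% were on the higher side in those comparisons, a share that became 43.8%, 43.2% and 31.5% with trimmed mean of M values (TMM) scaling and 52.1%, 52.6% and 39.9% with quantile normalization.

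Differences are of group means on the log2(CPM + 1) scale, and a gene counted as higher or lower at 2-fold. CPM, a read count scaled to the library total, does not correct for gene length, so levels are compared between groups and not between genes. The libraries were primed on poly(A): fewer transcripts, shorter tails and a smaller share of the library cannot be told apart. Ranges are the lowest and highest oocyte, with the median in parentheses.

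In IVM against GV oocytes, 4 cytosolic synthetase genes were at least 2-fold higher, 9 were lower and 7 lay within 2-fold, with a median log2 difference of -0.74. Of the mitochondrial genes, none was 2-fold higher, 5 were lower and 12 lay within 2-fold, with a median of -0.62. Across all genes past the filter 15.9% were 2-fold higher and 33.0% lower, and over the 37 synthetases the shares were 10.8% and 37.8%. Every IVM oocyte stood above every GV oocyte for 4 synthetase genes, all cytosolic, and below for 6, against 11.5% and 19.9% of all genes. Without GV replicate 9 the gene counts were 4 above, all cytosolic, and 6 cytosolic and 5 mitochondrial below, against 14.0% and 25.6% of all genes.

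In CNP_IVM against GV oocytes, 1 cytosolic gene (IARS1) was 2-fold higher, 11 were lower and 8 lay within 2-fold, with a median of -1.36. The mitochondrial class had none higher, 7 lower and 10 within 2-fold, with a median of -0.88. The background was 15.3% higher and 42.0% lower, and the 37 synthetases gave 2.70% and 48.6%. Every CNP_IVM oocyte stood above every GV oocyte for 3 genes and below for 12, against 12.9% and 28.0% of all genes. Without GV replicate 9 the counts were 3 above, with 10 cytosolic and 9 mitochondrial genes below, against 15.1% and 36.1%. Both comparisons used the same GV oocytes. Of the 37 genes, 13 were 2-fold lower in both and 1, IARS1, was higher in both, against 31.5% and 10.5% of all genes. Over the 37 genes the shares on the lower side were close to those of all genes. By class, 45% of cytosolic and 29.4% of mitochondrial genes were lower in IVM against GV, beside 33.0% of all genes. In CNP_IVM against GV the class shares were 55% and 41.2%, beside 42.0% of all genes. The synthetases that stood higher were a few cytosolic enzymes, described by role below.

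**Figure D1:**
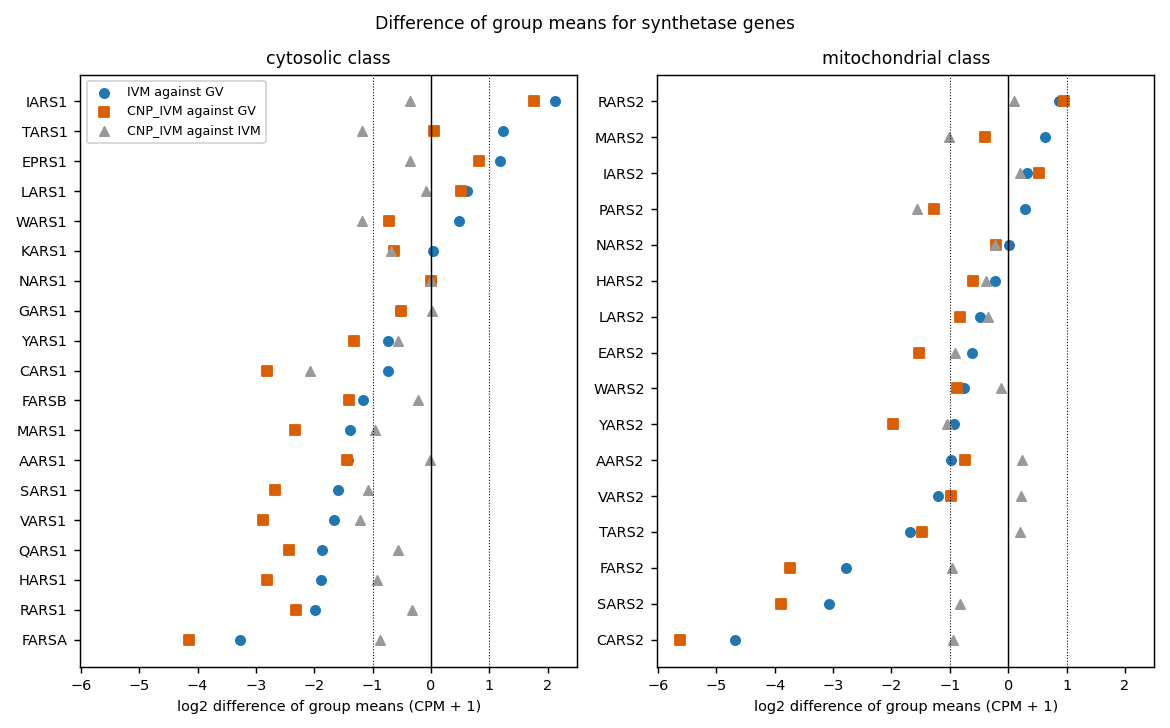
Log2 difference of group means (CPM + 1) for 35 synthetase genes (horizontal axis), cytosolic class on the left and mitochondrial class on the right, for IVM against GV (circles), CNP_IVM against GV (squares) and CNP_IVM against IVM (triangles), with dotted lines at 2-fold. IARS1, TARS1 and EPRS1 lie past the upper line in IVM against GV, and CARS2 lies farthest left at -4.68 and -5.62 against GV.

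Enzymes of the multisynthetase complex went both ways. Of its 8 synthetases, 3 were 2-fold higher (IARS1 and EPRS1 among them), 3 lower (RARS1, QARS1 and MARS1) and 2 within 2-fold (LARS1 and KARS1) in IVM against GV oocytes. Those counts were 1, 3 and 4 for CNP_IVM against GV, and for CNP_IVM against IVM all 8 were within 2-fold, and the median log2 differences were 0.32, -0.059 and -0.47. Among all genes 15.9% were higher and 33.0% lower in IVM against GV. The shares were 15.3% and 42.0% in CNP_IVM against GV, and 1.86% and 14.8% in CNP_IVM against IVM. IARS1, the isoleucyl enzyme, stood at 0 to 27.7 CPM (median 23.9) in GV, 79.9 to 127 (90.7) in IVM and 52.7 to 105 (73.9) in CNP_IVM oocytes. All cultured oocytes stood above all GV oocytes, with log2 differences of 2.12 for IVM and 1.76 for CNP_IVM, the highest of any synthetase gene in each comparison. EPRS1, which carries the glutamyl and the prolyl enzyme in a joined protein, stood at 106 to 120.4 CPM (median 117) in GV, 227 to 296 (268) in IVM and 145 to 274 (210.2) in CNP_IVM oocytes. No cultured oocyte reached down to the GV range, and the GV oocytes lay close together; the log2 differences were 1.19 and 0.82, the second becoming 1.37 with TMM scaling. LARS1, the leucyl enzyme, also known as a leucine sensor upstream of mTORC1, stood at 27.7 to 56.2 CPM (median 47.3) in GV, 44.02 to 84.97 (71.9) in IVM and 57.5 to 81.3 (59.4) in CNP_IVM oocytes. Its IVM range overlapped GV, all CNP_IVM oocytes lay above GV, and both differences stayed within 2-fold (0.61 and 0.52), although CNP_IVM against GV was 1.05 with TMM scaling.

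RARS1, the arginyl enzyme of the complex, was the counterpart on the lower side. It stood at 195 to 902 CPM (median 729) in GV, 104 to 248 (144) in IVM and 102 to 157 (139) in CNP_IVM oocytes. GV replicate 9 held the lowest GV value, below the highest IVM oocyte, and without it the groups did not overlap; the log2 differences were -1.98 and -2.31. QARS1, the glutaminyl enzyme, stood at 0.109 to 17.6 CPM (median 13.5) in GV, 0 to 14.1 (0.692) in IVM and 0 to 6.28 (0.588) in CNP_IVM oocytes. Many of its values were near 0: 3 IVM and 3 CNP_IVM oocytes had no read, and the GV minimum was replicate 9. IVM replicate 8, at 14.1 CPM, stood above the other IVM oocytes, which reached 2.09, and the differences were -1.86 and -2.43. MARS1, the methionyl enzyme, stood at 27.9 to 78.6 CPM (median 42.3) in GV, 4.27 to 33.2 (15.4) in IVM and 4.94 to 11.7 (7.22) in CNP_IVM oocytes. IVM oocytes overlapped GV and CNP_IVM oocytes all lay below it (-1.38 and -2.33). The scaffold genes also differed among themselves. AIMP1 and AIMP2 averaged 106, 40.4 and 57.3 CPM and 206, 46.5 and 41.6 CPM in GV, IVM and CNP_IVM oocytes, and EEF1E1 37.6, 48.8 and 76.4 CPM. AIMP2 was 2-fold lower in both cultured groups (-2.12 and -2.28), AIMP1 passed 2-fold in IVM and not in CNP_IVM (-1.38 and -0.88), and EEF1E1 was higher in CNP_IVM against GV at 1.00 with overlapping ranges.

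**Figure D2:**
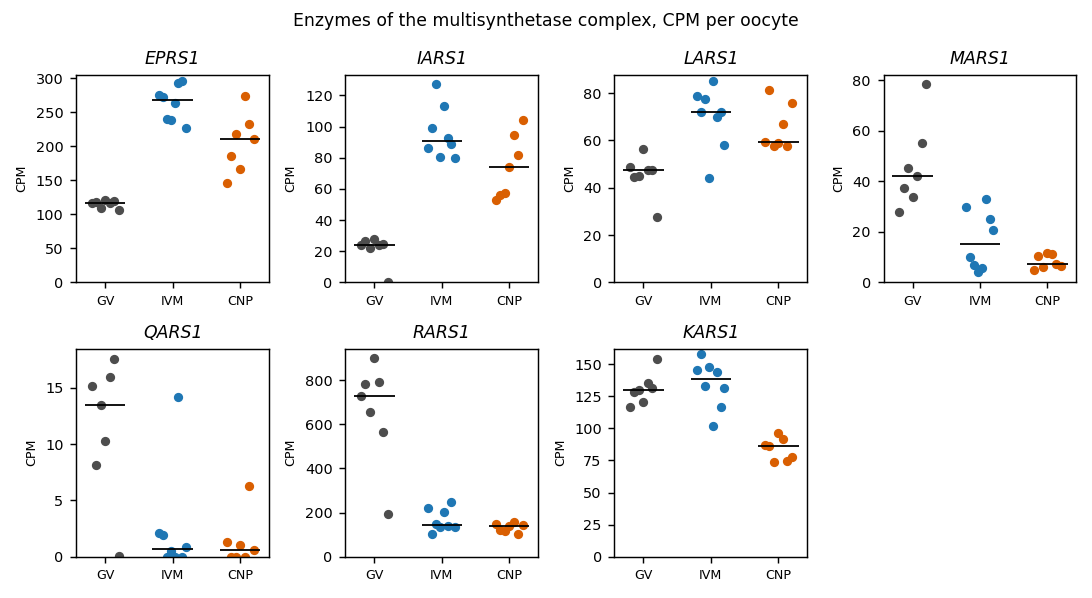
CPM in each oocyte (points) with the group median (line) for 7 synthetase genes of the multisynthetase complex, in GV, IVM and CNP_IVM (CNP) oocytes, each panel with its own axis from 0. IARS1 and EPRS1 lie higher in IVM than in GV oocytes, RARS1, QARS1 and MARS1 lie lower, and the low GV point of RARS1 at 195 CPM is GV replicate 9.

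The cytosolic phenylalanyl enzyme is built from FARSA (alpha) and FARSB (beta) subunits, and its transcripts did not keep their ratio. FARSA stood at 27.2 to 55.2 CPM (median 44.2) in GV, 0 to 9.21 (2.496) in IVM and 0.154 to 4.46 (0.364) in CNP_IVM oocytes. No cultured oocyte reached the GV range, and the log2 differences of -3.27 and -4.15 were the lowest of the cytosolic class. FARSB stood at 129.8 to 602 CPM (median 430.0) in GV, 113 to 312 (191) in IVM and 106 to 250.3 (159) in CNP_IVM oocytes. Its lowest GV oocyte was again replicate 9, its other 6 GV oocytes lay above every cultured oocyte, and the differences of -1.17 and -1.40 were within 2-fold with TMM scaling (-0.86 and -0.87) and with median-of-ratios scaling (-0.98 and -0.99). The FARSA to FARSB read ratio of each oocyte does not change with a scaling factor of its library. It was 0.0526 to 0.425 (0.0734) in GV, 0 to 0.0463 (0.0120) in IVM and 0.000616 to 0.0298 (0.00177) in CNP_IVM oocytes. Every cultured oocyte thus had a lower ratio than every GV oocyte. FARS2, the mitochondrial enzyme, which works as a lone chain, stood at 31.9 to 123 CPM (median 44.9) in GV, 2.08 to 13.8 (7.17) in IVM and 0.840 to 7.55 (2.26) in CNP_IVM oocytes. Its groups did not overlap either, at -2.77 and -3.73, and the GV maximum was replicate 9.

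Among the other cytosolic enzymes, TARS1 was the other gene with every IVM oocyte above GV. TARS1, the threonyl enzyme, stood at 1.85 to 111 CPM (median 95.4) in GV, 146 to 285 (205) in IVM and 54.5 to 101 (88.8) in CNP_IVM oocytes. The IVM oocytes lay above both other groups, at 1.23 against GV, whereas CNP_IVM and GV means were close (0.044, and -0.17 without GV replicate 9, the GV minimum). HARS1, the histidyl enzyme, stood at 4.25 to 42.6 CPM (median 34.9) in GV, 4.51 to 13.98 (7.72) in IVM and 1.38 to 8.12 (2.76) in CNP_IVM oocytes. Apart from GV replicate 9, all GV oocytes were above all cultured ones (-1.88 and -2.81). VARS1, the valyl enzyme, which binds elongation factor 1, stood at 11.8 to 66.4 CPM (median 26.4) in GV, 3.67 to 17.6 (4.93) in IVM and 1.47 to 6.200 (2.07) in CNP_IVM oocytes. Its IVM range ran into the GV range and its CNP_IVM range did not (-1.66 and -2.87). SARS1, the seryl enzyme, stood at 27.1 to 55.2 CPM (median 37.7) in GV, 2.98 to 19.1 (11.6) in IVM and 2.89 to 8.55 (5.26) in CNP_IVM oocytes. Its GV oocytes lay above all cultured oocytes (-1.60 and -2.68). CARS1, the cysteinyl enzyme, stood at 10.2 to 34.3 CPM (median 18.1) in GV, 0.549 to 31.6 (7.26) in IVM and 0 to 4.15 (1.52) in CNP_IVM oocytes. The IVM oocytes overlapped the GV range and the CNP_IVM oocytes lay below it (-0.74 and -2.82). WARS1, the tryptophanyl enzyme, known as an interferon-induced gene, stood at 54.96 to 206 CPM (median 80.98) in GV, 47.6 to 187 (136) in IVM and 43.01 to 73.2 (53.4) in CNP_IVM oocytes. All 3 ranges overlapped, and the signs differed, at 0.47 for IVM and -0.71 for CNP_IVM. NARS1, the asparaginyl enzyme, stood at 87.1 to 133 CPM (median 102) in GV, 77.9 to 148 (91.4) in IVM and 76.1 to 125 (109) in CNP_IVM oocytes. Its group means differed least, at -0.0017 and -0.0029, signs that turned to 0.25 and 0.55 with TMM scaling. AARS1 and YARS1, the alanyl and tyrosyl enzymes, averaged 7.98, 2.36 and 2.303 CPM and 5.34, 2.798 and 1.56 CPM in GV, IVM and CNP_IVM oocytes. Both had overlapping ranges, although without GV replicate 9, at 0 CPM for AARS1, every IVM oocyte lay below every GV oocyte for that gene. The differences were -1.42 and -1.44 for AARS1 and -0.74 and -1.31 for YARS1. The last of these was within 2-fold without GV replicate 9 (-0.92) and with TMM scaling (-0.87).

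The genes whose products serve both compartments lay within 2-fold in every comparison. KARS1, the lysyl enzyme, which also sits in the complex, stood at 117 to 154 CPM (median 130.1) in GV, 102 to 158 (138) in IVM and 73.5 to 96.3 (86.1) in CNP_IVM oocytes. IVM and GV oocytes overlapped (0.039), and every CNP_IVM oocyte lay below every oocyte of both other groups (-0.64 against GV, -0.079 with TMM scaling). GARS1, the glycyl enzyme, stood at 30.2 to 81.2 CPM (median 59.98) in GV, 22.03 to 57.5 (37.8) in IVM and 20.6 to 60.2 (39.1) in CNP_IVM oocytes. Its ranges overlapped in all comparisons, at -0.53 and -0.51 against GV, the second 0.0082 with TMM scaling.

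In the mitochondrial class, CARS2, the cysteinyl enzyme, which also makes cysteine persulfides, had the lowest log2 differences of all 37 genes. CARS2 stood at 76.5 to 132 CPM (median 109) in GV, 0.149 to 8.27 (3.103) in IVM and 0.280 to 2.098 (1.08) in CNP_IVM oocytes. No cultured oocyte came near the GV range (-4.68 and -5.62). SARS2, the seryl enzyme, stood at 6.81 to 60.4 CPM (median 12.3) in GV, 0 to 4.601 (1.12) in IVM and 0 to 1.18 (0.105) in CNP_IVM oocytes. Again no cultured oocyte reached the GV range (-3.07 and -3.90), although the GV maximum was replicate 9 and the next GV oocyte was at 12.98 CPM. WARS2, the tryptophanyl enzyme, stood at 70.1 to 95.6 CPM (median 76.8) in GV, 37.7 to 61.5 (47.1) in IVM and 22.5 to 54.1 (48.7) in CNP_IVM oocytes. Its groups were apart from GV without passing 2-fold (-0.75 and -0.88). RARS2, the arginyl enzyme, went the other way and stood at 129 to 434 CPM (median 349) in GV, 395 to 738 (687) in IVM and 388 to 1027 (654) in CNP_IVM oocytes. The IVM and CNP_IVM ranges began below the highest GV oocyte, and the differences of 0.87 and 0.96 fell short of 2-fold, but reached 1.17 and 1.50 with TMM scaling. IARS2, the isoleucyl enzyme, stood at 1.85 to 21.5 CPM (median 19.1) in GV, 10.6 to 30.6 (20.04) in IVM and 18.4 to 30.9 (21.98) in CNP_IVM oocytes. Its ranges overlapped GV, with 0.33 and 0.54, the second becoming 1.03 with TMM scaling. EARS2, the glutamyl enzyme that also starts mitochondrial glutaminyl-tRNA synthesis, averaged 8.54, 5.202 and 2.29 CPM in GV, IVM and CNP_IVM oocytes. Its CNP_IVM oocytes all lay below GV (-1.54), and its IVM oocytes overlapped GV (-0.62).

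The remaining mitochondrial genes were low throughout. HARS2, NARS2 and MARS2 averaged 7.498, 6.295 and 4.59 CPM, 6.19, 6.29 and 5.25 CPM and 3.91, 6.57 and 2.75 CPM in GV, IVM and CNP_IVM oocytes, with overlapping ranges and differences from GV within 2-fold. TARS2, the threonyl enzyme, stood at 2.79 to 7.75 CPM (median 5.63) in GV, 0 to 4.14 (0.153) in IVM and 0 to 2.89 (1.28) in CNP_IVM oocytes. Its ranges overlapped GV at -1.69 and -1.48. AARS2, LARS2, PARS2, VARS2 and YARS2 had mean levels of 1.48, 1.56, 1.54, 1.69 and 3.0 CPM in GV oocytes. In CNP_IVM oocytes YARS2 and PARS2, the tyrosyl and prolyl enzymes, were at 0 in 5 of 7 oocytes each, with 4 and 16 reads in all. Beside GV, YARS2 was at -0.93 in IVM and -1.98 in CNP_IVM, and PARS2 at 0.29 and -1.26. VARS2, the valyl enzyme, passed 2-fold in IVM (-1.20) and not in CNP_IVM (-0.97). AARS2 and LARS2 stayed within 2-fold on this scale, at -0.98 and -0.74 and at -0.48 and -0.82. With a pseudocount of 5 CPM, TARS2, VARS2 and AARS1 lay within 2-fold in IVM against GV, and AARS1, YARS1, EARS2, PARS2, TARS2 and YARS2 did so in CNP_IVM against GV. Of the 37 genes, 7 were under 10 CPM in every GV oocyte, 12 in every IVM oocyte and 20 in every CNP_IVM oocyte.

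**Figure D3:**
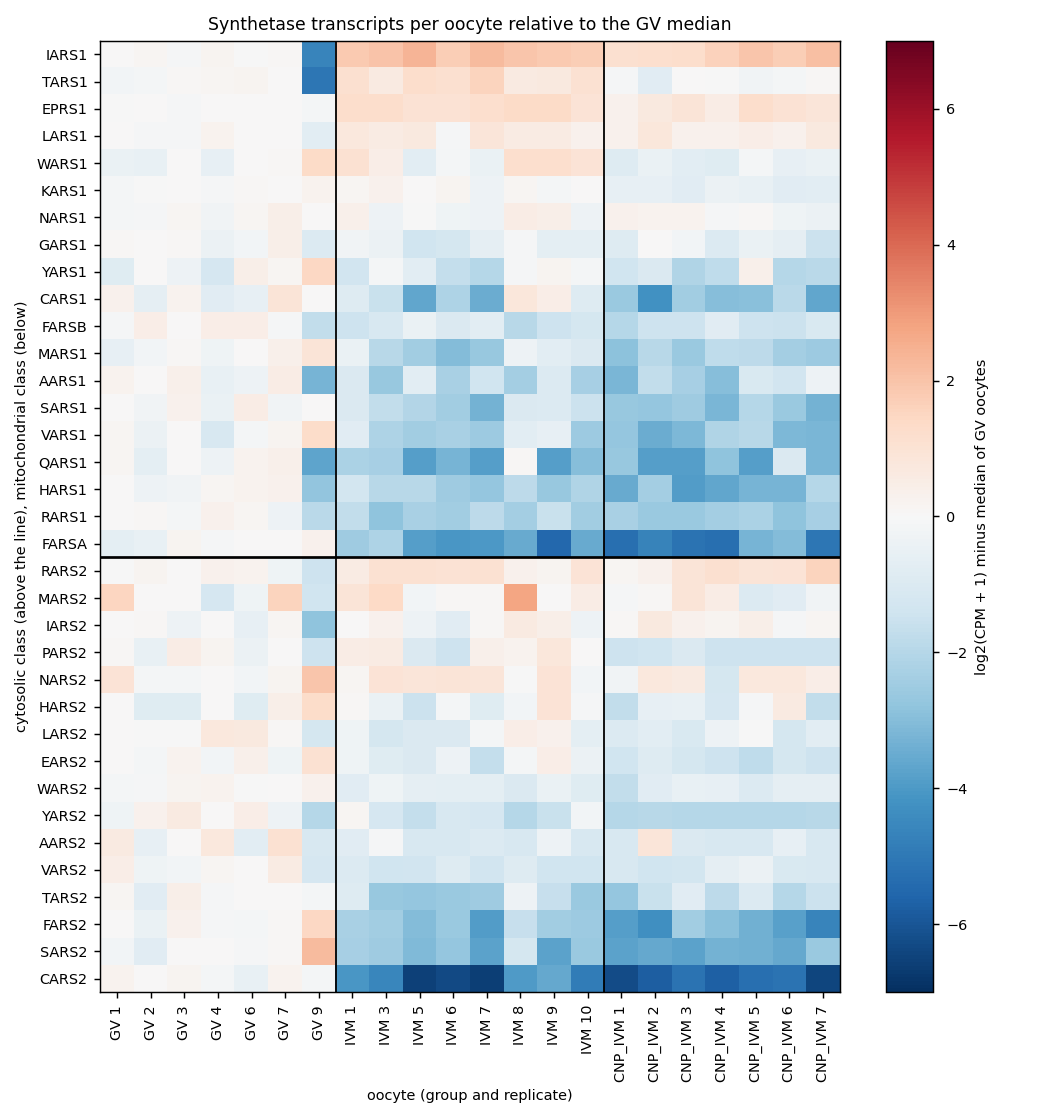
Log2(CPM + 1) of 35 synthetase genes (rows, cytosolic class above the black line) in each oocyte (columns, by group and replicate), minus the median of the GV oocytes; red is above and blue below that median. GV 9 differs from the other 6 GV columns, with TARS1 at 1.85 and IARS1 at 0 CPM, and the CARS2 row is blue in every cultured oocyte.

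Cytosolic and mitochondrial enzymes for the same amino acid did not go together in every case. Of 14 amino acids with a suffix 1 and a suffix 2 gene, the log2 differences had opposite signs for 6 when IVM was set against GV, for 3 with CNP_IVM and GV, and for 6 between the cultured groups. These counts include differences near 0, such as NARS1 at -0.0017 and NARS2 at 0.019 in IVM against GV, and under the other scalings they ran from 5 to 6, 3 to 5 and 7 to 8. Opposite signs with both genes past 2-fold occurred for threonine in IVM against GV, TARS1 at 1.23 and TARS2 at -1.69 and for none in the other comparisons. With TMM or median-of-ratios scaling arginine joined it, RARS1 being 2-fold lower and RARS2 2-fold higher in both cultured groups against GV, and with quantile normalization methionine did so in IVM against GV. For arginine, the RARS1 to RARS2 read ratio was 1.51 to 2.13 (1.96) in GV, 0.145 to 0.630 (0.242) in IVM and 0.140 to 0.382 (0.184) in CNP_IVM oocytes. This ratio does not change with a scaling factor of the library, as in TMM or median-of-ratios scaling, and it was not taken after quantile normalization. Every cultured oocyte had a lower ratio than every GV oocyte, including replicate 9. For cysteine, the CARS1 to CARS2 ratio was 0.102 to 0.260 (0.173) in GV, 1.52 to 8.27 (3.36) in IVM and 0 to 5.25 (1.29) in CNP_IVM oocytes. Every IVM oocyte had a higher ratio than every GV oocyte; 1 CNP_IVM oocyte had no CARS1 read. For histidine the cytosolic gene was the lower one, with HARS1 at -1.88 and -2.81 against GV and HARS2 at -0.22 and -0.60. For alanine, cysteine, serine, valine and tyrosine, as for histidine, both genes lay below GV in both cultured groups, and for isoleucine both lay above. With quantile normalization AARS2 turned to above GV in CNP_IVM and HARS2 in both groups, and with TMM scaling HARS2 did so in IVM.

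**Figure D4:**
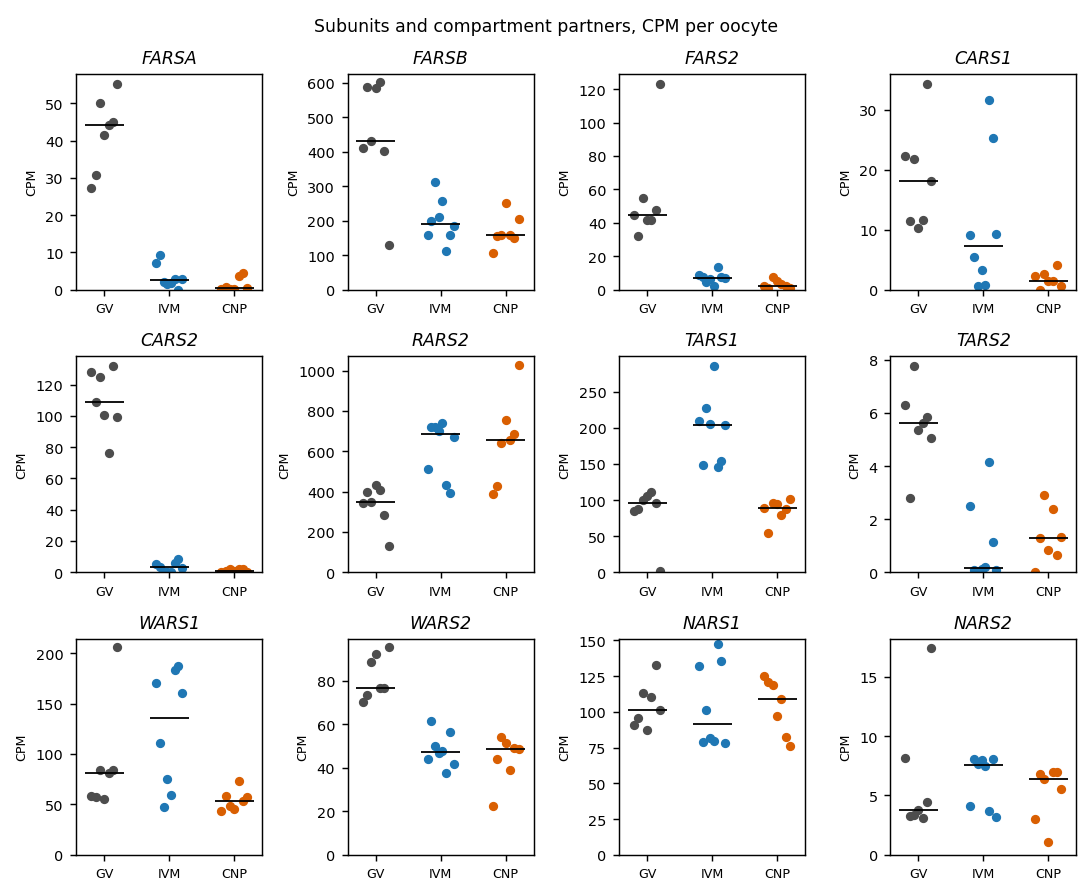
CPM in each oocyte (points) with the group median (line) for subunits and compartment partners, in GV, IVM and CNP_IVM (CNP) oocytes, each panel with its own axis from 0. FARSA, FARS2 and CARS2 are high in GV oocytes alone, RARS2 is higher in most cultured oocytes, and TARS1 is highest in IVM oocytes.

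Summed over the class, cytosolic synthetase reads made up 1247 to 2423 CPM (median 2095) in GV, 1481 to 1828 (1713) in IVM and 1019 to 1324 (1148) in CNP_IVM oocytes. As deposited, the highest CNP_IVM oocyte was under the lowest IVM oocyte, and IVM overlapped GV. The CNP_IVM mean of 1181 CPM became 1437 with TMM scaling, 1401 with median-of-ratios scaling and 1335 with quantile normalization. Whether the summed ranges stay apart under those scalings was not examined. FARSB and RARS1 gave 56.9% of that sum in the median GV oocyte, 21.9% in IVM and 24.97% in CNP_IVM. Without these genes the sum was 864 to 1064 CPM (922) in GV, 1137 to 1470.1 (1288) in IVM and 765 to 1007 (881) in CNP_IVM oocytes. The order of IVM and GV thus turned with those genes left out, and every IVM oocyte then lay above every oocyte of the other groups. FARSB and RARS1 here, and RARS2, CARS2 and FARS2 below, were chosen for leaving out after their values were seen. Leaving out genes that were lower in IVM moves the sum that way by construction, and these reduced sums were not taken under other scalings. Mitochondrial synthetase reads summed to 569 to 751 CPM (675) in GV, 545 to 872 (790.3) in IVM and 448 to 1136 (769) in CNP_IVM oocytes, with all groups overlapping. RARS2 gave 50.7%, 84.7% and 86.6% of that sum in the median oocyte. Without RARS2 the other 16 genes summed to 266 to 440.0 CPM (333) in GV, 92.6 to 152 (114) in IVM and 60.1 to 127 (109) in CNP_IVM oocytes. Much of that GV sum was CARS2 and FARS2, and the 14 genes left without them summed to 136 to 217 CPM (165) in GV, 87.8 to 141 (105) in IVM and 57.5 to 117 (107) in CNP_IVM oocytes, with IVM overlapping GV. These sums count reads, to which long transcripts contribute more.

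**Figure D5:**
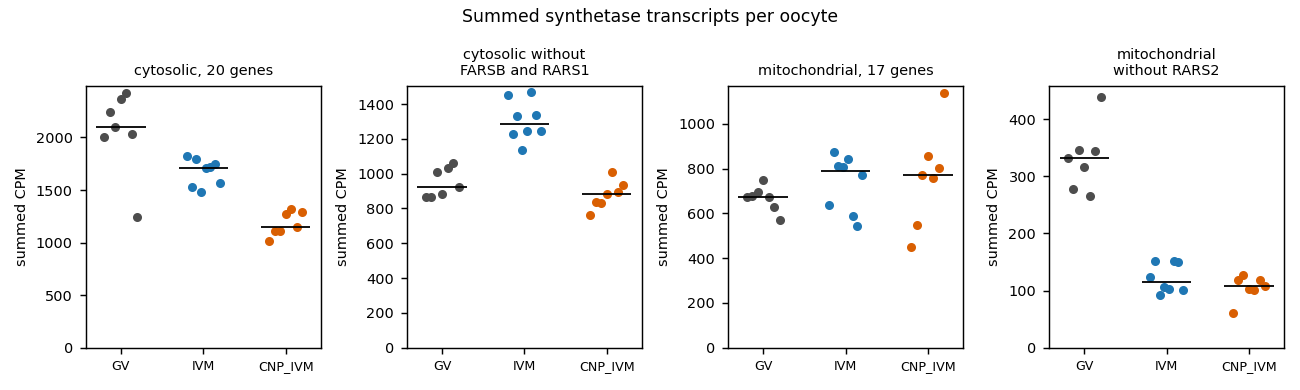
Summed CPM per oocyte (points) with the group median (line) for the cytosolic class, the cytosolic class without FARSB and RARS1, the mitochondrial class, and the mitochondrial class without RARS2, in GV, IVM and CNP_IVM oocytes. Without RARS2 the mitochondrial sum, much of it CARS2 and FARS2 in GV, lies at 266 CPM or more in GV oocytes and at 152 or less in cultured oocytes.

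Between the maturation systems, the CNP_IVM mean was below the IVM mean for 19 of 20 cytosolic and 11 of 17 mitochondrial genes, against 69.1% of all genes. AARS1, LARS1, NARS1 and WARS2 turned to above it with TMM scaling, which left 16 and 10 below (53.97% of all genes), and quantile normalization left 15 and 7 (49.6%). No gene was 2-fold higher in CNP_IVM, 5 cytosolic genes (CARS1, VARS1, TARS1, WARS1 and SARS1) and 3 mitochondrial genes (PARS2, YARS2 and MARS2) were 2-fold lower, against 1.86% of all genes higher and 14.8% lower. The class medians were -0.59 and -0.35, against -0.28 for all genes; with quantile normalization the mitochondrial one turned to 0.058 and that of all genes to 0.0059. MARS2 was at -1.01 and fell within 2-fold with every other scaling (-0.71 with TMM) and with medians over oocytes. It did so too when IVM replicate 3 or 8, or CNP_IVM replicate 1, 5, 6 or 7, was left out. Without IVM replicate 8, its highest IVM oocyte at 23.8 CPM, the difference was -0.45. PARS2 and YARS2, at -1.56 and -1.04 with overlapping ranges, had 16 and 4 reads in CNP_IVM oocytes against 556 and 301 in IVM oocytes. Their IVM means were 2.11 and 1.09 CPM, and with a pseudocount of 5 CPM all 3 mitochondrial genes were within 2-fold. YARS2 was also within 2-fold when IVM replicate 1 or 10 was left out. CARS1 had the lowest difference at -2.07, and its ranges overlapped. It was the single cytosolic gene still 2-fold lower with TMM scaling (-1.74), median-of-ratios scaling (-1.74) and quantile normalization (-1.43). TARS1, at -1.19, had no overlap between the groups, and was within 2-fold with TMM scaling (-0.96). WARS1, VARS1 and SARS1 were at -1.18, -1.21 and -1.08 with overlapping ranges, and at -0.84, -0.88 and -0.78 with TMM scaling. SARS1 was also within 2-fold when IVM replicate 1, 8 or 9, or CNP_IVM replicate 7, was left out. TARS1 and KARS1 were the synthetases whose groups did not overlap as deposited; neither stayed apart with TMM or median-of-ratios scaling, and TARS1 alone did with quantile normalization. Across all genes 1.38% lay above and 2.60% below in every oocyte. GARS1 was the one cytosolic gene with a higher CNP_IVM mean (0.018). IARS2 and RARS2 were at 0.21 and 0.10, and WARS2 at -0.13, all with overlapping ranges.

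The spread between oocytes of a group differed from gene to gene. Among IVM oocytes the coefficient of variation was 1.08 for CARS1 and 0.683 for MARS1, against 0.0965 for EPRS1 and 0.135 for KARS1. IVM replicates 8 and 9 held the highest IVM value for 12 and 11 of the 37 genes, and CNP_IVM replicate 1 the lowest CNP_IVM value for 15. By RefSeq cattle annotation the spans of 15 of the 37 genes overlap another gene, among them RARS1 with WWC1, MARS1 with DDIT3, CARS2 with ING1 and RARS2 with SLC35A1. These libraries carry no strand mark, so reads from shared exons cannot be told apart and those values are uncertain.

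Genes that work beside the synthetases were read from lists of known function. Across all genes past the filter, 15.9% were 2-fold higher and 33.0% lower in IVM against GV oocytes. The shares were 15.3% and 42.0% in CNP_IVM against GV, and 1.86% and 14.8% in CNP_IVM against IVM. Of the mitochondrial partners QRSL1, GATB and GATC (the amidotransferase that completes glutaminyl-tRNA) and MTFMT (which formylates the initiator), none of 4 passed 2-fold against GV in either group (medians 0.57 and -0.44). GATB was lower in CNP_IVM against IVM (-1.27). Of 6 editing and recycling genes past the filter, 3 were lower in IVM and 4 in CNP_IVM, none was higher, and the medians were -1.09 and -1.44. AARSD1, an alanyl-tRNA editing protein, averaged 198, 29.4 and 15.2 CPM in GV, IVM and CNP_IVM oocytes, with -2.71 and -3.62. DTD1, which removes D-amino acids from tRNA, averaged 110.0, 40.2 and 13.7 CPM, with -1.43 and -2.92. Every cultured oocyte lay below every GV oocyte for both genes. PTRH2, a peptidyl-tRNA hydrolase, was at -2.16 and -1.33. SEPSECS, which makes selenocysteinyl-tRNA, stood at 15.3 to 27.7 CPM (median 24.2) in GV, 56.2 to 113 (80.6) in IVM and 49.8 to 98.8 (62.3) in CNP_IVM oocytes. Its cultured oocytes were all above GV (1.79 and 1.47), while PSTK, the kinase of the preceding step, was 2-fold lower (-1.49 and -1.96) with overlapping ranges.

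Of 21 tRNA maturation and export genes past the filter, 5 were higher and 8 lower in IVM than in GV oocytes, 2 and 12 when CNP_IVM was set against GV, and 0 and 5 against IVM, with medians of -0.58, -1.16 and -0.69. As shares of the list these were 23.8% and 38.1%, 9.52% and 57.1%, and 0% and 23.8%. The shares of all genes were 15.9% and 33.0%, 15.3% and 42.0%, and 1.86% and 14.8%. TRMT1, which dimethylates guanosine in tRNA, stood at 85.2 to 209.7 CPM (median 179) in GV, 5.25 to 15.6 (10.1) in IVM and 0.898 to 12.3 (3.56) in CNP_IVM oocytes. No cultured oocyte reached the GV range (-3.92 and -4.68). TRMU, which thiolates mitochondrial tRNAs, was likewise lower in every cultured oocyte (-3.40 and -4.26). XPOT, the exporter of tRNA from the nucleus, stood at 15.03 to 31.4 CPM (median 17.3) in GV, 39.7 to 74.00 (50.1) in IVM and 36.3 to 73.2 (58.04) in CNP_IVM oocytes. It was higher in every cultured oocyte (1.39 and 1.51). TYW1, a wybutosine enzyme, was at 1.32 and 0.63, and TRMT6, a subunit of a tRNA methyltransferase, at 1.23 and 1.38.

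Of 12 genes of the amino acid response past the filter, 1 was higher and 3 lower in IVM than in GV oocytes. The counts were 1 and 4 when CNP_IVM was set against GV, and 0 and 2 against IVM. The medians were -0.30, -0.020 and -0.043. As shares of the list these were 8.33% and 25%, 8.33% and 33.3%, and 0% and 16.7%. The shares of all genes were 15.9% and 33.0%, 15.3% and 42.0%, and 1.86% and 14.8%. The amino acid response starts when uncharged tRNA activates the kinase GCN2, encoded by EIF2AK4. It runs through the factor ATF4 to genes such as ASNS and CHAC1. ATF4 stood at 134 to 359 CPM (median 149) in GV, 43.5 to 132 (77.9) in IVM and 34.8 to 64.0 (45.3) in CNP_IVM oocytes. Its cultured oocytes all lay below GV. DDIT3, another gene of the list, went the other way, averaging 503, 521 and 735 CPM. EIF2AK4 stood at 40.04 to 68.9 CPM (median 44.9) in GV, 71.9 to 136 (87.9) in IVM and 69.3 to 173 (109.8) in CNP_IVM oocytes. All cultured oocytes lay above GV (0.87 and 1.28). ASNS, asparagine synthetase, stood at 73.8 to 211 CPM (median 168) in GV, 29.8 to 69.8 (44.9) in IVM and 19.6 to 44.5 (30.9) in CNP_IVM oocytes. All cultured oocytes lay below GV (-1.74 and -2.29). CHAC1, which degrades glutathione, stood at 30.5 to 222 CPM (median 46.4) in GV, 2.18 to 38.9 (7.07) in IVM and 0.112 to 6.26 (3.82) in CNP_IVM oocytes. Its IVM oocytes overlapped GV and its CNP_IVM oocytes did not (-2.40 and -4.31). PPP1R15A, a phosphatase subunit that reverses the block on initiation, was at 1.16 and 0.89 with overlapping ranges.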

How the data were processed

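Single-oocyte libraries were primed on poly(A) and made with SMART-Seq v4 and Nextera XT, per the labels' protocols. The tools named are HISAT2 2.2.1, featureCounts 2.0.1, Trim Galore 0.6.7, edgeR and FastQC, per the submitters' processing notes, with a mouse genome build, although the gene symbols are those of cattle: all 37 synthetase symbols matched the RefSeq table of the cattle assembly. Roles, strand setting and annotation are not given in the sources used here. The values deposited by the authors are CPM: within a library every value was a whole multiple of the worth of 1 read (100% of values, tolerance 0.01 read), so gene length does not enter, although the table is named for TPM. Recovered totals were 20159662 to 39340040 reads. No 2 libraries of a group agreed within sampling noise (chi-square per degree of freedom of at least 37.96).

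The filter kept 11852 genes that reached 1 CPM in 6 or more oocytes. Differences are of group means on the log2 scale with a pseudocount of 1 CPM, computed with Python 3.11.15, pandas 2.3.3 and numpy 2.4.6, and figures with matplotlib 3.10.9. Since no donor or culture is named, each group is 1 sample, and neither a test nor a count model was used; edgeR 4.0.16 in R 4.3.3 gave TMM scaling factors for an alternative. The scripts were tested on simulated data. Members and lists were chosen with earlier results of these data known. Described in full were, for each comparison and class, up to 3 members in each direction with the largest difference, among those whose mean reached 10 CPM in either group, with GARS1, KARS1, EPRS1, FARSA, FARSB and pairs that differ in opposite directions; other members shown oocyte by oocyte were added after their values were seen. In other lists, at most 2 genes in each direction were named by the same rule. All scaffold and mitochondrial partner genes are named because those lists are short, and ATF4 and DDIT3 were added after their values were seen. Alternatives were other pseudocounts, filters, scalings, fold thresholds, medians over oocytes, leaving out the dual genes, and leaving out each oocyte. Of the 37 members, 2 are not reported one by one here and stay in the counts, medians and sums. Samples without values were not analysed here.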

Additional observations from a re-analysis of the deposited data

Results flagged for a closer look

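In all, 111 groups of values were examined (35 genes and 2 class sums in each of 3 groups). Of these, 23 held an oocyte far from the others of its group. A chance rate of about 1 in 20 holds only for independent values with a normal spread. Some of these values were low and skewed, and all genes of an oocyte share its library. The 23 therefore cannot be set against that rate, and no conclusion is drawn from their number. Of the 23, 14 lay in GV, every one in replicate 9, 4 in IVM and 5 in CNP_IVM. The separate standing of GV replicate 9 over all genes goes with those 14 values, and its part in them was not tested.

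In GV replicate 9 the lowest values were FARSB at 129.8 CPM (others 403 to 602), HARS1 at 4.25 (27.02 to 42.6), IARS1 at 0 (22.3 to 27.7), LARS1 at 27.7 (44.7 to 56.2) and TARS1 at 1.85 (84.6 to 110.5). The summed cytosolic class was lowest there as well, at 1247 CPM (2004 to 2423). Its highest values were VARS1 at 66.4 CPM (11.8 to 30.3), WARS1 at 206 (55.0 to 84.2), YARS1 at 14.4 (1.48 to 6.34), EARS2 at 16.05 (5.64 to 9.34) and FARS2 at 123 (31.9 to 54.9). HARS2 at 18.5 CPM (3.41 to 9.56), NARS2 at 17.4 (3.13 to 8.15) and SARS2 at 60.4 (6.81 to 12.98) were also highest there.

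Among IVM oocytes, replicate 8 had QARS1 at 14.1 CPM (others 0 to 2.09), MARS2 at 23.8 (2.16 to 8.39) and SARS2 at 4.60 (0 to 1.63), and replicate 9 had HARS2 at 14.2 (1.78 to 7.41). Among CNP_IVM oocytes, QARS1 was 6.28 CPM in replicate 6 (0 to 1.32), YARS1 6.20 in replicate 5 (0.281 to 1.75) and AARS2 2.91 in replicate 2 (0 to 0.446). PARS2 was 0.358 CPM in replicate 3 (0 to 0.0523) and SARS2 1.18 in replicate 7 (0 to 0.360).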

How the results depend on the processing

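No paired analysis was possible because replicate numbers only name oocytes and no result comes from a test. No member past 2-fold turned to the other side under any scaling, pseudocount, filter or left-out oocyte; counts moved as follows, and the cause was not tested. Quantile normalization turned the mitochondrial median to 0.0019 in IVM against GV and 0.058 in CNP_IVM against IVM, and gave -0.13 in CNP_IVM against GV, with cytosolic medians of -0.35 and -0.34 against GV. In CNP_IVM against GV the cytosolic median was -0.87 with TMM and -0.97 with median-of-ratios scaling. Mitochondrial genes 2-fold higher in IVM against GV numbered 1 with each scaling: RARS2 with TMM and median-of-ratios, and MARS2 with quantile. Over all genes, those higher in IVM against GV were 1880 as deposited, 2638 with TMM, 2266 with median-of-ratios and 3121 with quantile. In CNP_IVM against GV, 3 mitochondrial genes were higher with TMM, 1 with median-of-ratios and 2 with quantile, where 4 were lower. All genes lower there numbered 3183 with quantile, against 4977 as deposited. Cytosolic genes higher in CNP_IVM against GV were 4, 3 and 4 with the same scalings, and lower in CNP_IVM against IVM 1 with each. Of all 11852 genes past the filter, 1818 were higher in CNP_IVM against GV as deposited, and 3012, 2740 and 3533 with these scalings. Those lower in CNP_IVM against IVM were 1754 as deposited, and 992, 983 and 701. Mitochondrial genes with every CNP_IVM oocyte above GV were 2, 1 and 1, and with every one below GV 3 with quantile. Cytosolic genes with every CNP_IVM oocyte below IVM were 0, 0 and 1. Counts of this kind over all genes were not taken under the scalings. Summed means were 1437, 1401 and 1335 CPM for the cytosolic class in CNP_IVM and 554, 588 and 609 CPM for the mitochondrial class in GV oocytes.

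With a pseudocount of 0.1 CPM, the mitochondrial median in CNP_IVM against GV was -1.59, and 8 cytosolic and 7 mitochondrial genes were lower in CNP_IVM against IVM. With 5 CPM these counts were 3 and 0, mitochondrial genes lower against GV were 3 in each group, and the CNP_IVM medians against GV were -0.75 and -0.37. Over all genes, those lower in CNP_IVM against IVM were 2793 with 0.1 CPM and 743 with 5 CPM, against 1754 as deposited. With 5 CPM, those lower against GV were 2675 in IVM and 3505 in CNP_IVM, against 3917 and 4977 as deposited. Filtering at 5 CPM left 1 mitochondrial gene lower in CNP_IVM against IVM. At 1.5-fold, mitochondrial genes higher and lower were 2 and 9 in IVM and 2 and 12 in CNP_IVM against GV, 3 cytosolic genes were higher in CNP_IVM against GV, and 10 cytosolic and 7 mitochondrial genes were lower in CNP_IVM against IVM. At 3-fold, 1 cytosolic gene was higher in IVM against GV, and 4 mitochondrial genes were lower in CNP_IVM against GV. In CNP_IVM against IVM 1 cytosolic and 0 mitochondrial genes were lower. Counts over all genes at other fold thresholds, other filters and with left-out oocytes are not given in this section.

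Leaving out each oocyte in turn gave, in CNP_IVM against GV, 1 to 2 cytosolic and 0 to 1 mitochondrial genes higher. In CNP_IVM against IVM it gave 4 to 8 cytosolic genes lower (8 without CNP_IVM replicate 5) and 2 to 6 mitochondrial genes (6 without IVM replicate 7, 5 without IVM replicate 5 or CNP_IVM replicate 3). Genes with every oocyte lower ranged from 2 to 6 in the cytosolic class in IVM against GV (6 without GV replicate 9), 5 to 9 in the mitochondrial class in CNP_IVM against GV (9 without GV replicate 9), and 0 to 1 there in CNP_IVM against IVM (1 without IVM replicate 6 or 8). Mitochondrial genes with every IVM oocyte above GV were 0 to 1, with 1 without IVM replicate 9. The counts of genes in which every oocyte was higher or lower were put through the scalings and left-out oocytes after seeing the data. The counts of pairs and the order of the cultured groups were put through the scalings after seeing the data. The sums without their main genes were added after seeing the data and were put through neither. Counting reads limits the values under about 1 CPM.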

Other observations

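By catalytic class, a split added after the values were seen, the enzymes were divided by the 2 unrelated folds of the catalytic core. EPRS1, which joins a class I glutamyl and a class II prolyl enzyme, was counted in class I. In IVM against GV oocytes, 2 of 10 class I cytosolic genes were 2-fold higher (EPRS1 among them) and 4 lower, against 2 and 5 of 10 class II genes; every IVM oocyte lay below every GV oocyte for 0 and 2 of them. In CNP_IVM against GV oocytes the counts were 1 and 6 for class I and 0 and 5 for class II, with medians of -1.81 and -1.02. Of the mitochondrial genes, 2 of 9 in class I and 3 of 8 in class II were lower in IVM against GV, and 3 and 4 in CNP_IVM against GV. Across all genes past the filter, 15.9% were 2-fold higher and 33.0% lower in IVM against GV, and 15.3% and 42.0% in CNP_IVM against GV. Every IVM oocyte lay below every GV oocyte for 19.9% of all genes. No difference between the classes was tested.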
